A study of Danio rerio with 24 samples.

Results

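Long non-coding RNA genes of the zebrafish were followed in whole embryos exposed to ultraviolet B (UVB). A gene was a member of the set when the deposited annotation gave its biotype as lincRNA, lncRNA or antisense, leaving out the stretch of chromosome 4 that starts beyond position 27000000. The annotation lists 2040 such genes and the count table holds 771 of them, among 23219 genes in all. Of the 771 genes, 566 have the biotype lincRNA, meant for genes between other genes, and 205 the biotype antisense, meant for genes opposite another gene. By their coordinates 461 of the lincRNA genes overlap no other gene, 48 overlap one on the opposite strand only and 57 one on the same strand, whereas 3, 171 and 31 of the antisense genes do so. No gene with counts has the biotype lncRNA. The rule left out 25 genes with counts on chromosome 4.

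A long non-coding RNA is transcribed and in many cases, but not all, spliced and polyadenylated like a messenger RNA, and it carries no long reading frame. Such RNAs are known to act in the nucleus on transcription and splicing, to bind microRNAs or proteins, or to act on a neighbouring gene through the act of being transcribed. Many are restricted to a tissue or stage, and few have a known function in zebrafish. UVB makes lesions in DNA that stop RNA polymerase, and the nuclear exosome, with its adaptors, degrades many non-coding transcripts.

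The study asked how the embryo's transcripts respond to UVB with and without gadusol, a compound of fish that absorbs UVB. The gene eevs codes for the enzyme that starts its synthesis. Embryos grew in darkness at 28.5 °C, were treated at 24 h post fertilisation (hpf), and were returned to darkness until RNA was taken with Trizol from whole embryos and polyA RNA was sequenced with a directional kit. There were 8 groups of 3 libraries each. At 29 hpf, 5 h after treatment, these were Meevs embryos (maternal eevs mutants) given 450 J of UVB, mock-treated Meevs embryos, wild type embryos given 450 J of UVB, and mock-treated wild type embryos. At 48 hpf, 24 h after treatment, the same 4 groups were taken again. The labels name no eevs allele, no strain and no area for the dose, and they do not say how many embryos were pooled. Whether replicates were separate clutches is not stated either. A p-value sets a difference against the spread of libraries within groups, estimated over all 8 groups together. Part or all of that spread may be technical. Sample descriptions place every wild type library in 1 series and every Meevs library in another, so genotype and library series cannot be told apart.

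Library totals ranged between 22395870 and 44691629 counts. All 17 markers of neurons, skin, muscle, blood, lens, liver and other embryonic tissues were found, although the liver gene fabp10a stayed between 0 and 0.934 CPM (counts scaled to library size) and the lens gene cryaa between 0.384 and 32.6 CPM. The eevs transcript does not check the genotype labels: it had 2 to 7 counts per library in mock-treated Meevs embryos at 29 hpf, against 5 to 8 in mock-treated wild type embryos, and 59 to 80 counts in mock-treated Meevs embryos at 48 hpf, against 22 to 25 in wild type. After UVB it had 50 to 84 counts in Meevs at 29 hpf, against 7 to 16 in wild type. At 48 hpf after UVB it had 12 to 21 counts in Meevs, against 11 to 16 in wild type. In an earlier analysis 4 libraries stood apart on the principal components, namely replicate 3 of Meevs mock at 29 hpf, replicate 3 of wild type UVB at 29 hpf, replicate 1 of wild type UVB at 48 hpf and replicate 3 of Meevs UVB at 48 hpf. Where a count moved by over 1.5 times or a call of a described gene was lost without them, the value without them is given, in part in the closing sections.

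The set was sparse in reads. Enough counts for a test were present for 655 of the 771 genes (85.0%), against 97.0% of protein_coding genes, and 116 genes were not tested. The median level over all libraries was -0.47 log2 CPM for the tested long non-coding RNA genes, against 3.25 log2 CPM for the tested protein_coding genes. CPM counts reads and is not divided by transcript length, so it orders genes by the reads they took and not by molecules. A mean of at least 1 CPM was reached by 296 genes and a mean of at least 10 CPM by 46. The 10 genes with most counts held 58.0% of all counts of the set. The genes are also short: the median span in the genome was 6.58 kb, against 16.3 kb for protein_coding genes, with a range of 325 to 528492 bases. A span that overlaps another annotated gene was found for 307 genes. The kit keeps the strand, but no source used here says whether counting was strand-aware, and reads of those 307 genes may be mixed with reads of the partner. Only 8 genes carry a symbol other than a clone or locus placeholder, and the IDs of 514 had an entry in the supplied table of gene names.

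One gene dominated the reads. CR383676.2 (ENSDARG00000099970, chromosome 14, 45631236 to 45638712, minus strand, GRCz11) is named malat1 in the reference name table. It is the fish counterpart of a nuclear RNA known in mammals as a component of splicing speckles. At 48 hpf it had 1320, 1460 and 1400 CPM in mock-treated Meevs embryos, against 2430, 2350 and 2050 CPM in mock-treated wild type embryos. At 29 hpf the mock-treated Meevs libraries had 743, 851 and 1060 CPM, against 1490, 1720 and 1500 CPM in mock-treated wild type libraries. At both stages every Meevs library lay below every wild type library. The Meevs minus wild type log2 difference was -0.71 ± 0.11 (SE of the fit, n = 3 each) at 48 hpf, with an edgeR adjusted p of 7.47e-06, and -0.83 ± 0.11 at 29 hpf, with an edgeR adjusted p of 1.28e-06. Because genotype and library series cannot be told apart, neither can the source of this difference.

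CR383676.2 made up 21.9 to 49.8% of the counts of the whole set, so the share of each library held by the set followed it. That share was 0.366, 0.396 and 0.378% in mock-treated Meevs embryos at 48 hpf, against 0.279, 0.301 and 0.302% at 29 hpf. In mock-treated wild type embryos it was 0.536, 0.51 and 0.491% at 48 hpf, against 0.407, 0.429 and 0.416% at 29 hpf. With CR383676.2 left out, the share at 48 hpf was 0.239, 0.247 and 0.241% in mock-treated Meevs embryos, against 0.208, 0.22 and 0.209% at 29 hpf. The stage groups did not overlap with or without the gene. UVB groups overlapped their mock groups in most cases, and the exceptions were both in wild type. With the gene included they were apart at 48 hpf, with 0.473, 0.475 and 0.47% after UVB, against 0.536, 0.51 and 0.491% in mock embryos. With the gene left out they were apart at 29 hpf, with 0.226, 0.249 and 0.249% after UVB, against 0.251, 0.25 and 0.257% in mock embryos.

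**Figure D1:**
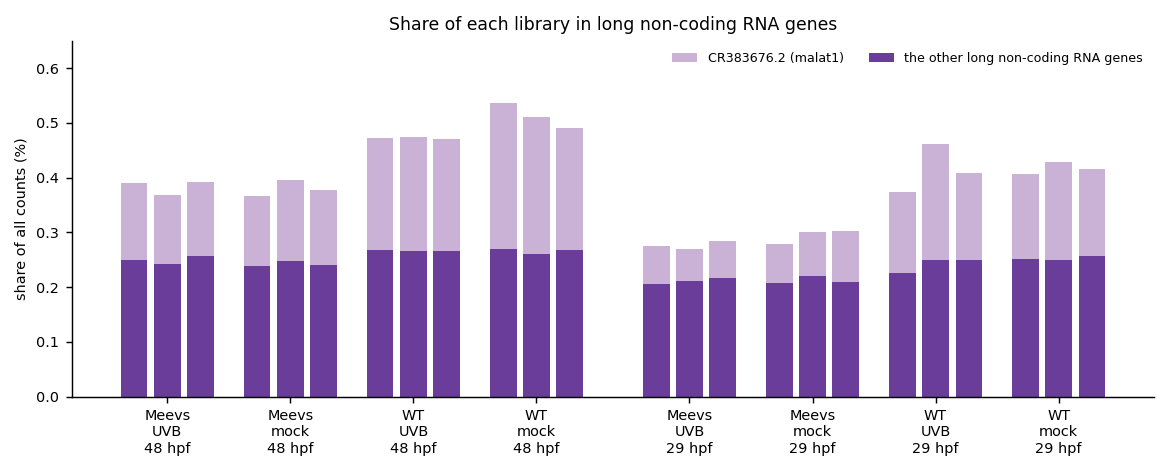
Share of each library's counts held by the long non-coding RNA genes, in percent, with 1 bar for each of the 24 libraries; the light part is CR383676.2 and the dark part is the other genes of the set. At 29 hpf the Meevs libraries lay between 0.27 and 0.302% and the wild type libraries between 0.374 and 0.462%, and most of the gap is in the light part.

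Apart from malat1, the established member with most reads was oip5-as1 (ENSDARG00000093456, chromosome 13, 33261131 to 33301170, minus strand), also called cyrano, which is known in mammals to bind the microRNA miR-7. At 29 hpf it had 160, 146 and 157 CPM in Meevs UVB embryos, against 119, 126 and 132 CPM in Meevs mock embryos, and every UVB library lay above every mock library. It rose there by 0.29 ± 0.06 on the log2 scale (edgeR adjusted p = 0.000214). In wild type at 29 hpf the values were 191, 197 and 181 CPM after UVB, against 170, 167 and 172 CPM in mock, and the log2 difference of 0.16 ± 0.06 did not pass the test (edgeR adjusted p = 0.0642). The effects of both genotypes were not told apart by their difference, 0.14 ± 0.08 (edgeR adjusted p = 0.388).

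The change between 29 and 48 hpf in mock-treated embryos was the largest in the set by number of genes. In Meevs, 261 of the 655 tested genes differed, 141 higher and 120 lower at 48 hpf, which is 39.8%, against 60.2% of all tested genes, 28.7% higher and 31.5% lower. In wild type, 288 differed, 155 higher and 133 lower, which is 44.0%, against 63.7% of all tested genes, 30.2% higher and 33.5% lower. Protein_coding genes of like read level, matched in bins of 0.5 log2 CPM, were called in 47.4% of cases in Meevs and 52.7% in wild type. Among those matched genes higher calls outnumbered lower ones. In Meevs the set had 21.5% higher and 18.3% lower, against 32.9% and 14.5% of the matched genes. In wild type it had 23.7% higher and 20.3% lower, against 35.4% and 17.2%. The median log2 change of the set was -0.02 in Meevs and -0.03 in wild type, against -0.04 over all tested genes in each. For the protein_coding genes of like level, the medians of the bins were averaged, weighted by the number of members in each bin. This average of bin medians was 0.36 in Meevs and 0.35 in wild type, and the median of the set lay below it. Between the genotypes, 117 genes were higher and 87 lower at 48 hpf in both, against 25.5% and 27.9% of all tested genes, and 0 were called in opposite directions by edgeR, also at an unadjusted p under 0.05, or by DESeq2. In whole embryos, a change in the number of cells of a type and a change in RNA per cell cannot be told apart.

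Biotype went with the share of stage calls. In wild type, 127 lincRNA genes were higher and 110 lower at 48 hpf (48.7% of those tested), whereas 28 antisense genes were higher and 23 lower (30.4%). The antisense genes also had fewer reads, with a median of -0.98 log2 CPM, against -0.12 for the lincRNA genes, and the part of read level in this gap was not tested.

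Genes that rose strongly between the stages included long loci and short ones. CU693494.2 (ENSDARG00000097118, chromosome 2, 342478 to 344595) had 3.68, 3.53 and 4.06 CPM in wild type mock at 48 hpf, against 0.192, 0.307 and 0.338 CPM at 29 hpf. Its log2 change was 3.79 ± 0.28 in Meevs (edgeR adjusted p = 2.7e-13) and 3.75 ± 0.33 in wild type (edgeR adjusted p = 2.54e-12), the largest rise that the naming rule gave in each. CR848047.1 (ENSDARG00000095906, chromosome 16, 29212421 to 29227002) had about 10 times more reads at 48 hpf: 178, 180 and 191 CPM in wild type mock, against 16.1, 20.8 and 19.4 CPM at 29 hpf. Its log2 change was 3.47 ± 0.10 in Meevs (edgeR adjusted p = 6.85e-19) and 3.29 ± 0.10 in wild type (edgeR adjusted p = 6.96e-19). No library of one stage came near a library of the other for either gene.

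Other members rose by comparable amounts in both genotypes. CU929451.2 on chromosome 25 changed by 3.71 ± 0.22 in Meevs and 3.27 ± 0.21 in wild type on the log2 scale. CR847968.1, which spans chromosome 12 between 40205995 and 40518280, changed by 3.09 ± 0.17 in Meevs and 3.06 ± 0.15 in wild type. BX322530.1 on chromosome 16 changed by 2.84 ± 0.26 in Meevs and 2.86 ± 0.24 in wild type. CU467822.2 on chromosome 7, among the 10 genes with most reads, had 105, 111 and 127 CPM in wild type mock at 48 hpf, against 17.5, 21.9 and 21 CPM at 29 hpf, and all 3 later libraries lay far above the earlier ones. All of these changes passed the test, with edgeR adjusted p-values of 9.25e-11 or below.

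The largest fall under the naming rule was that of CABZ01075068.1 (ENSDARG00000117538, chromosome 18, 2139002 to 2142429). In Meevs mock it had 0, 0.0511 and 0.174 CPM at 48 hpf, from 0, 2 and 4 counts, against 3.54, 2.71 and 0.753 CPM at 29 hpf. It was therefore near the detection limit at 48 hpf in Meevs. In wild type mock it had 0.376, 0.222 and 0.222 CPM at 48 hpf, against 10.1, 6.42 and 10 CPM at 29 hpf. The log2 change was -5.05 ± 0.93 in Meevs (edgeR adjusted p = 3.13e-08) and -4.97 ± 0.47 in wild type (edgeR adjusted p = 4.68e-12), and the Meevs value depends on the prior count used for low values.

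CU659670.1 (ENSDARG00000096419, chromosome 6, 6995294 to 6997346) fell with many more reads behind it. In wild type mock it had 14.7, 15.2 and 15.7 CPM at 48 hpf, against 76.3, 79.1 and 84.9 CPM at 29 hpf. The log2 change was -2.39 ± 0.12 in Meevs (edgeR adjusted p = 1.31e-14) and -2.40 ± 0.12 in wild type (edgeR adjusted p = 4.73e-15). CABZ01032351.1, FP565451.1, BX001023.2 and CABZ01072309.2 fell as well, with log2 changes between -1.95 and -2.32 in Meevs and between -1.71 and -2.50 in wild type. For each of these genes the groups did not overlap in either genotype.

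**Figure D2:**
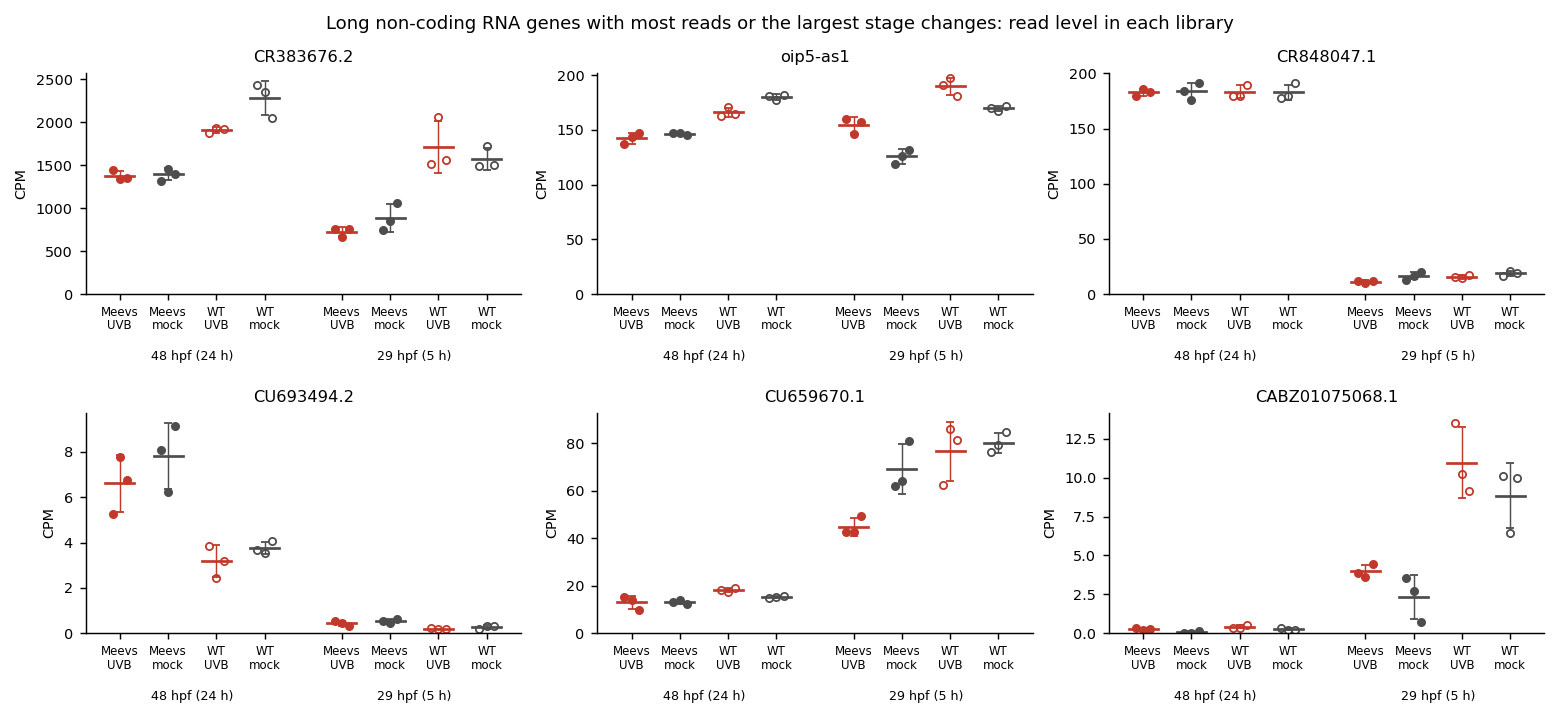
CPM per library (points), group mean (bar) and SD (error bar, n = 3) for CR383676.2, oip5-as1, CR848047.1, CU693494.2, CU659670.1 and CABZ01075068.1, with Meevs filled, wild type open, UVB in red and mock in grey. CR848047.1 stood between 176 and 191 CPM at 48 hpf in all 12 libraries, and CABZ01075068.1 stood below 0.6 CPM in the same libraries.

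At 5 h after UVB, Meevs embryos had more genes of the set called lower than called higher. Of the 655 tested genes, 138 (21.1%) were called, 49 higher and 89 lower than in mock embryos. Over all tested genes 34.4% were called, with 19.1% higher and 15.3% lower, and protein_coding genes of like read level were called in 17.6% of cases, with 8.27% higher and 9.35% lower. The median log2 UVB difference was -0.11 for the set and 0.05 over all tested genes. The weighted average of bin medians was 0.00 for the protein_coding genes of like level. Changes of at least 2-fold were called in 15 higher genes and 39 lower ones of the 655, against 1.39% higher and 3.76% lower over all tested genes. Called genes had a median absolute log2 difference of 0.83 in the set and 0.48 among protein_coding genes. Neither this median nor the 2-fold share was taken for genes of like read level, and the set has fewer reads than protein_coding genes. Without the 307 genes that overlap another gene, 401 genes were tested and 89 (22.2%) were called, 27 higher and 62 lower. Calls went with read level: 9.7% of the genes under 0 log2 CPM, 26.7% of those between 0 and 2 and 50.9% of those over 2 were called.

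Among the genes that rose in Meevs at 5 h, CU927934.3 (ENSDARG00000098037, chromosome 2, 14007938 to 14009528, minus strand) had the largest change under the naming rule. It had 6.15, 6.01 and 6.5 CPM after UVB, against 1.42, 1.79 and 1.96 CPM in mock. Every UVB library was more than 3 times higher than every mock library. The log2 difference was 1.85 ± 0.24 (edgeR adjusted p = 6.23e-07). In wild type at 5 h the gene had 0.771, 1.26 and 0.964 CPM after UVB, against 0.448, 0.581 and 0.602 CPM in mock, groups that did not overlap but whose log2 difference of 0.87 ± 0.33 missed the threshold (edgeR adjusted p = 0.0742). The difference of these effects was 0.99 ± 0.40 (edgeR adjusted p = 0.177). Its neighbour on the chromosome, the lincRNA gene CU927934.1 at 14009630 to 14010658, was below the level asked of named genes and is given after its values were seen. It had 3.53, 3.39 and 5.24 CPM in Meevs after UVB, against 0.776, 1.33 and 1.2 CPM in mock. Its log2 difference was 1.87 ± 0.28 (edgeR adjusted p = 5.33e-06). Whether both annotations belong to 1 transcript was not tested.

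CR936462.1 (ENSDARG00000117211, chromosome 5, 43822113 to 43847779, minus strand) had 20.9, 21.1 and 20.2 CPM in Meevs after UVB, against 11.4, 10.1 and 7.73 CPM in mock, and rose by 1.08 ± 0.18 on the log2 scale (edgeR adjusted p = 2.86e-05). In wild type it had 18.8, 20.5 and 17.7 CPM after UVB, against 14.2, 11.9 and 11.1 CPM in mock, and the log2 difference was 0.61 ± 0.17 (edgeR adjusted p = 0.0187). The groups did not overlap in either genotype, and UVB libraries of both genotypes ended near the same level. The wild type call was lost without replicate 2 or 3 of the mock group or without replicate 1 or 2 of the UVB group, with adjusted p between 0.0582 and 0.0988. By 48 hpf in mock embryos this gene had fallen, with log2 changes of -2.09 ± 0.23 in Meevs and -2.07 ± 0.20 in wild type.

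BX510657.1 (ENSDARG00000093899, chromosome 20, 19779299 to 19788922) was the 1 gene of the set called higher at 5 h and lower at 24 h in Meevs, against 1.34% of all tested genes. At 5 h it had 16.8, 14.5 and 14.5 CPM after UVB, against 7.76, 6.43 and 8.68 CPM in mock, a log2 difference of 0.999 ± 0.13 (edgeR adjusted p = 9.8e-07). At 24 h it had 4.33, 5.61 and 6.01 CPM after UVB, against 8.49, 7.23 and 6.86 CPM in mock, a log2 difference of -0.50 ± 0.14 (edgeR adjusted p = 0.0114). The groups were apart at both times, in opposite order, but the 24 h call was lost without replicate 1 of Meevs UVB (adjusted p = 0.0891). CR388207.1 on chromosome 23, an antisense gene, rose by 1.30 ± 0.25 at 5 h in Meevs (edgeR adjusted p = 0.000107). CABZ01085061.1, on an unplaced scaffold, had a log2 difference of 0.86 ± 0.34 (edgeR adjusted p = 0.044) that was lost without any 1 of 5 of its 6 libraries, all but replicate 1 of Meevs mock, with adjusted p between 0.0539 and 0.291, and without the 4 libraries that stood apart (0.271).

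The strongest falls in Meevs at 5 h included genes of low and of moderate read level. AL808129.1 on chromosome 8 (43934595 to 43940177) had 0.405, 0.0499 and 0.284 CPM after UVB, against 0.647, 1.06 and 0.702 CPM in mock, a log2 difference of -1.84 ± 0.45 (edgeR adjusted p = 0.00142). CU856520.1 (ENSDARG00000098941, chromosome 13, 4712421 to 4714106, minus strand) had 5.85, 5.51 and 5.32 CPM after UVB, against 14.4, 17.1 and 20.5 CPM in mock. All 3 UVB libraries of CU856520.1 lay well below the lowest mock library, and groups without overlap were a condition of its naming. Its log2 difference was -1.64 ± 0.12 (edgeR adjusted p = 6.8e-11).

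In wild type embryos 5 h after UVB, 39 of the 655 tested genes (5.95%) were called, 12 higher and 27 lower. Over all tested genes 12.7% were called, with 6.67% higher and 6.06% lower, and protein_coding genes of like read level were called in 5.47% of cases. The median log2 difference was -0.06 for the set and 0.00 over all tested genes. The weighted average of bin medians was -0.05 for the protein_coding genes of like level. Of the genes called, 6 were higher and 22 were lower in both genotypes, against 5.46% and 5.17% of all tested genes, and 0 were called in opposite directions by edgeR, also at an unadjusted p under 0.05, or by DESeq2. BX510657.1, CU928129.2, CR936462.1 and AL935174.6 are among the 6 that rose in both. The count in wild type was 22 without replicate 3 of the mock group, 20 without UVB replicate 1 and 23 without UVB replicate 2. Without the overlapping genes it was 25 of 401 tested (6.23%), and with only the wild type 5 h libraries in the fit it was 22 of 481 tested. Without the 4 libraries that stood apart it was 57.

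CU928129.2 on chromosome 5 (69183255 to 69184273) rose by 0.61 ± 0.12 on the log2 scale in Meevs (edgeR adjusted p = 0.000281). It had 9.35, 9.18 and 8.23 CPM in wild type after UVB, against 6.72, 6.08 and 5.94 CPM in mock, and rose there by 0.51 ± 0.12 (edgeR adjusted p = 0.00624). AL935174.6 on chromosome 17, one of the 10 genes with most reads, had 83.5, 79 and 73.8 CPM in wild type after UVB, against 70.3, 65.8 and 71 CPM in mock. It passed the test in both genotypes, with log2 differences of 0.35 ± 0.07 in Meevs and 0.19 ± 0.06 in wild type (edgeR adjusted p = 0.000102 and 0.0487). The wild type call of AL935174.6 was lost when any of its 6 libraries but UVB replicate 3 was left out, with adjusted p between 0.0756 and 0.254. For both genes the UVB libraries stood above the mock libraries.

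Genes that fell in wild type at 5 h included CR932999.1 on chromosome 9 (40767055 to 40777341), with 1.63, 1.5 and 2.66 CPM after UVB, against 4.9, 3.83 and 3.5 CPM in mock. Its log2 difference was -1.05 ± 0.24 (edgeR adjusted p = 0.00451). FP102192.2 on chromosome 5 had 0.987, 0.14 and 0.564 CPM after UVB, against 1.54, 1.71 and 1.32 CPM in mock, a log2 difference of -1.40 ± 0.33 (edgeR adjusted p = 0.00405). Its UVB libraries had only 32, 4 and 24 counts. The call was lost with only the wild type 5 h libraries in the fit (edgeR adjusted p = 0.0524). CR848841.1 and BX511136.1 were called higher, with log2 differences of 0.84 ± 0.26 and 0.79 ± 0.24 (edgeR adjusted p = 0.0303 and 0.032). With only the wild type 5 h libraries in the fit, both calls were lost (edgeR adjusted p = 0.0762 and 0.0544). Each of these 2 calls was also lost when any 1 of 4 libraries was left out. For CR848841.1 these were mock replicates 2 and 3 and UVB replicates 1 and 2, with adjusted p between 0.0556 and 0.145. For BX511136.1 they were mock replicates 1 and 3 and UVB replicates 1 and 2, with adjusted p between 0.0617 and 0.157.

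**Figure D3:**
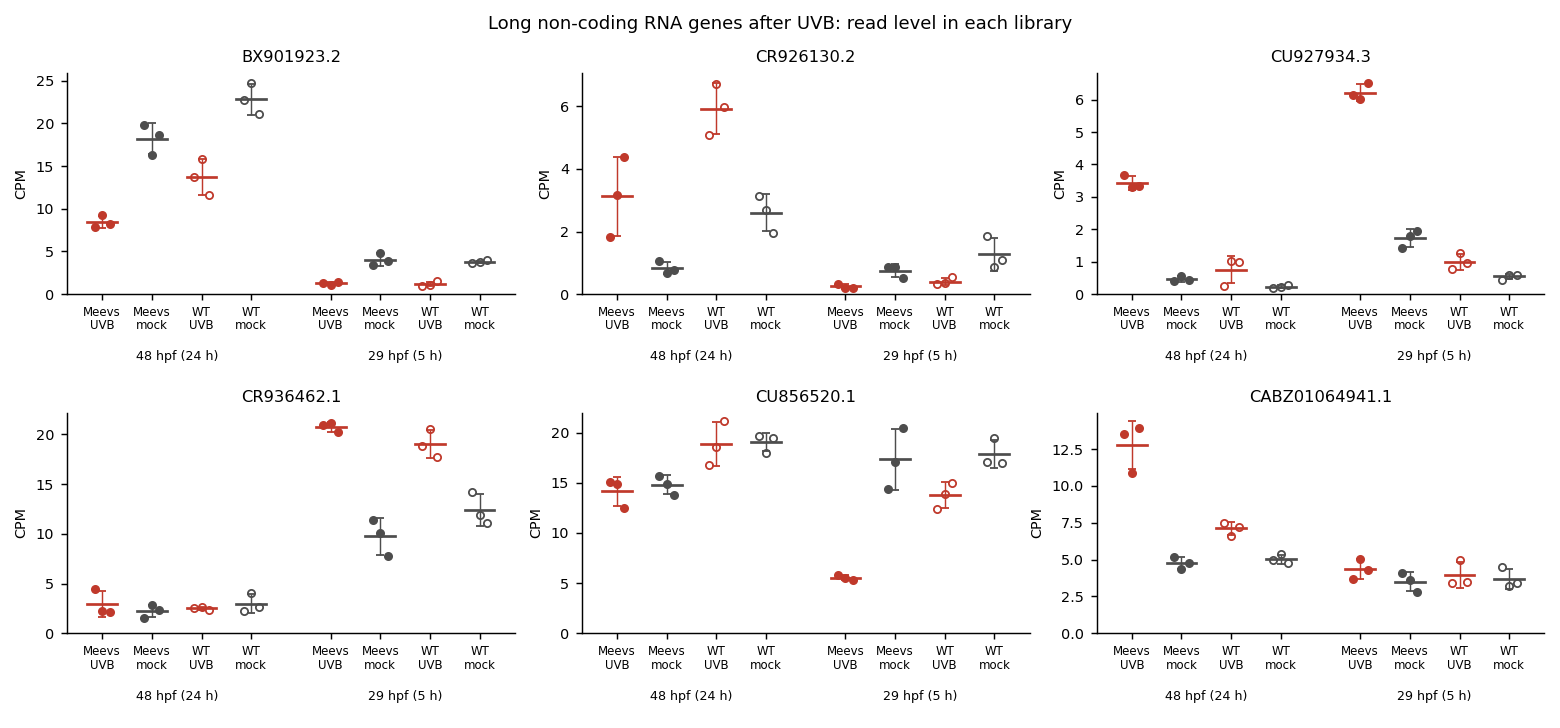
CPM per library (points), group mean (bar) and SD (error bar, n = 3) for BX901923.2, CR926130.2, CU927934.3, CR936462.1, CU856520.1 and CABZ01064941.1, with Meevs filled, wild type open, UVB in red and mock in grey. BX901923.2 is lower after UVB in both genotypes and at both times, and CU856520.1 is clearly lower only in the Meevs UVB group at 29 hpf, at 5.32 to 5.85 CPM.

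The UVB effect at 5 h itself differed between the genotypes for 13 of the 655 tested genes (1.98%), 3 with a higher and 10 with a lower log2 effect in Meevs, against 5.12% of all tested genes (2.02% higher and 3.09% lower) and 2.12% of protein_coding genes of like read level. The 3 with a higher effect were CABZ01005379.1, CABZ01064670.1 and BX957297.1, the last listed after its value was seen. The count was 4 without replicate 3 of wild type mock and 7 without replicate 3 of wild type UVB. CU856520.1 had the smallest adjusted p among those named. In wild type it had 12.4, 13.9 and 15 CPM after UVB, against 17.1, 19.5 and 17 CPM in mock, a log2 difference of -0.37 ± 0.11 (edgeR adjusted p = 0.0243) that was not called without mock replicate 2 or without UVB replicate 1 or 2 (adjusted p between 0.0598 and 0.153). The Meevs effect minus the wild type effect was -1.27 ± 0.16 (edgeR adjusted p = 1.64e-05). Mock embryos of both genotypes had similar values, with 14.4 to 20.5 CPM in Meevs and 17 to 19.5 CPM in wild type.

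BX470264.1 on chromosome 2 (9862833 to 9863388) had 1.51, 1.4 and 1.79 CPM in Meevs after UVB, against 2.33, 2.94 and 3.91 CPM in mock. In wild type it had 2.59, 2.62 and 2.59 CPM after UVB, against 2.69, 2.29 and 2.44 CPM in mock, so only the Meevs groups were apart. The difference of the effects was -1.04 ± 0.25 (edgeR adjusted p = 0.013). CU104777.1 on chromosome 9 (1642605 to 1649744) was lower in both genotypes, with log2 differences of -1.23 ± 0.15 in Meevs (edgeR adjusted p = 3.34e-07) and -0.48 ± 0.14 in wild type (edgeR adjusted p = 0.0229). The wild type call was lost without replicate 2 or 3 of mock or replicate 1 or 2 of UVB, with adjusted p between 0.0523 and 0.0957. The difference of its effects, -0.75 ± 0.21 (edgeR adjusted p = 0.0301), was lost without any 1 of 6 libraries, with adjusted p between 0.0517 and 0.0847, namely Meevs UVB 2, Meevs mock 1, wild type UVB 2 and 3, and wild type mock 1 and 3. The gene was also among the 7 genes that were lower at both times in Meevs, against 2.78% of all tested genes.

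At 24 h after UVB the balance of calls in Meevs was the other way. Of the 655 tested genes 63 (9.62%) were called, 49 higher and 14 lower than in mock embryos. Of these, 24 of the higher and 8 of the lower ones changed at least 2-fold, as did 2.64% higher and 1.46% lower of all tested genes. Called genes had a median absolute log2 difference of 1.0 in the set and 0.5 among protein_coding genes, which have more reads. Neither this median nor the 2-fold share was taken for genes of like level. Over all tested genes 20.4% were called, with 11.5% higher and 8.84% lower, and protein_coding genes of like read level were called in 15.5% of cases, with 8.5% higher and 7% lower. The median log2 difference was 0.08 for the set and 0.00 over all tested genes. The split moved with single libraries: without replicate 3 of Meevs UVB, 33 genes were higher and 18 lower, without replicate 1 of Meevs mock 31 were higher and 15 lower, and without the 4 libraries that stood apart, 36 were higher and 25 lower.

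CABZ01064941.1 (ENSDARG00000117393), on the unplaced scaffold KN150131.1 between 60456 and 70848, had the third largest rise in Meevs at 24 h under the naming rule, after CU927934.3 and CR926130.2. It had 13.5, 10.9 and 13.9 CPM after UVB, against 5.2, 4.37 and 4.78 CPM in mock. The log2 difference was 1.43 ± 0.15 (edgeR adjusted p = 5.77e-08). In wild type it had 7.49, 6.62 and 7.24 CPM after UVB, against 4.97, 5.37 and 4.75 CPM in mock, groups that did not overlap, with a log2 difference of 0.50 ± 0.15 (edgeR adjusted p = 0.0829). At 5 h neither genotype showed a difference that passed the test, with 0.32 ± 0.17 in Meevs and 0.07 ± 0.17 in wild type.

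CABZ01064941.1 was the 1 gene of the set, 0.153% of those tested, whose 24 h UVB effect was called different between the genotypes, against 2.4% of all tested genes (1.66% higher and 0.739% lower) and 1.62% of protein_coding genes of like read level. The Meevs effect minus the wild type effect was 0.93 ± 0.21 (edgeR adjusted p = 0.0138). It was not called without replicate 3 of Meevs UVB (adjusted p = 0.0531) or without replicate 2 of Meevs mock (adjusted p = 0.0528). At an unadjusted p under 0.05 there were 53 of the 655 tested genes. Genes without a difference also pass that threshold at times, and the share of all tested genes under it was not taken. DESeq2 called 3 genes of the set. The count in edgeR was 3 without replicate 2 of Meevs UVB, and 2 without replicate 1 or 3 of Meevs mock, replicate 1 or 2 of wild type UVB or replicate 1 of wild type mock.

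CU927934.3 remained higher in Meevs at 24 h, with 3.67, 3.3 and 3.32 CPM after UVB, against 0.411, 0.562 and 0.434 CPM in mock. Every UVB library stood far above the mock libraries, and the log2 difference was 2.83 ± 0.31 (edgeR adjusted p = 3.06e-08). In wild type it had 0.261, 1.01 and 0.976 CPM after UVB, against 0.188, 0.222 and 0.285 CPM in mock, and the groups overlapped. The wild type log2 difference was 1.66 ± 0.41 (edgeR adjusted p = 0.014), a call lost without replicate 1 or 2 of mock or replicate 2 or 3 of UVB, with adjusted p between 0.0541 and 0.139. CU927934.3 and CU927934.1 belong to the 8 genes that were higher at both times in Meevs, against 2.48% of all tested genes.

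AL954191.2 on chromosome 5 also rose in Meevs at 24 h, with a log2 difference of 1.40 ± 0.31 (edgeR adjusted p = 0.00137), while its 5 h difference was 0.02 ± 0.26. Genes that fell there included BX469902.2 on chromosome 9, with 1.43, 1.13 and 1.59 CPM after UVB, against 2.5, 2.71 and 2.35 CPM in mock, a log2 difference of -0.85 ± 0.23 (edgeR adjusted p = 0.00675). AL929222.2 on chromosome 3, an antisense gene, had 5.59, 5.47 and 5.75 CPM after UVB, against 9.05, 10.2 and 9.73 CPM in mock, and fell by 0.79 ± 0.17 on the log2 scale (edgeR adjusted p = 0.00107). It lies opposite col1a1a, which codes for a chain of type I collagen and which had a log2 difference of -0.68 ± 0.12 in the same comparison (edgeR adjusted p = 0.000152). Reads of these 2 genes may be mixed.

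In wild type at 24 h, 9 genes (1.37%) were called, 5 higher and 4 lower, against 2.24% of all tested genes (1.74% higher and 0.506% lower) and 1.68% of protein_coding genes of like read level. The higher ones were CU927934.3, CU927934.1, CR926130.2, LO017816.1 and BX649485.2, and the lower ones BX901923.2, CU861453.1, LO018605.3 and BX005043.2, of which BX649485.2, LO018605.3 and BX005043.2 are listed after their values were seen. The count was 3 without replicate 1 or 3 of the mock group or without replicate 2 or 3 of the UVB group, and 15 without the 4 libraries that stood apart. Of the genes called, 5 were higher and 3 lower in Meevs as well, against 1.54% and 0.439% of all tested genes. LO017816.1 on chromosome 16 had 1.7, 1.58 and 1.66 CPM after UVB, against 0.779, 1.02 and 1.01 CPM in mock, with a log2 difference of 0.82 ± 0.20 (edgeR adjusted p = 0.0249). This call was lost when any of its 6 libraries but replicate 2 of mock was left out, with adjusted p between 0.0509 and 0.204, and without the 4 libraries that stood apart (0.0579). The Meevs call of LO017816.1 at 24 h (edgeR adjusted p = 0.0305) was lost without any library but replicate 1 of Meevs mock, with adjusted p between 0.0627 and 0.212. It was also lost without those 4 libraries (0.102). CU861453.1, an antisense gene on chromosome 16, had a log2 difference of -0.51 ± 0.14 (edgeR adjusted p = 0.0469), which was lost when any 1 of its 6 libraries was left out, with adjusted p between 0.0539 and 0.281, and without those 4 libraries (0.0796).

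**Figure D4:**
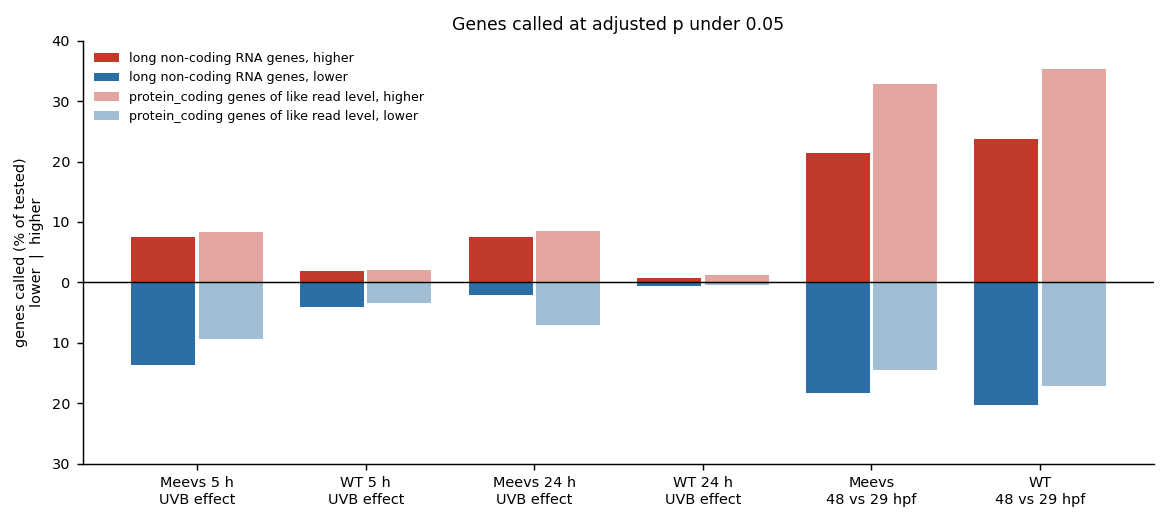
Share of tested genes called at an adjusted p under 0.05, higher above the line and lower below it, for the 655 long non-coding RNA genes (dark) and for protein_coding genes of like read level (pale), in 6 comparisons. For Meevs at 5 h the dark bars reach 7.48% higher and 13.6% lower, and for Meevs at 24 h they reach 7.48% higher and 2.14% lower.

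Across the 4 UVB effects, 187 of the 655 tested genes were called at least once, 96 higher and 101 lower in at least 1, and 468 were called in none. Over all tested genes 47.6% were called at least once, 29.3% higher and 22.2% lower in at least 1. A lower call in all 4 was found for 1 gene, BX901923.2, and a higher call in all 4 for 0 genes, against 0.197% and 0.242% of all tested genes. At an unadjusted p under 0.05 in edgeR these counts were 3 and 2, and DESeq2 called 2 and 1. The 4 UVB effects share no library.

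BX901923.2 (ENSDARG00000104200, chromosome 15, 17887307 to 17936128, plus strand) had 1.25, 1.12 and 1.42 CPM in Meevs UVB at 5 h, against 3.41, 4.83 and 3.86 CPM in mock, and 0.925, 1.12 and 1.48 CPM in wild type UVB, against 3.62, 3.72 and 3.95 CPM in mock. At 24 h it had 7.88, 9.28 and 8.27 CPM in Meevs UVB, against 19.8, 16.3 and 18.6 CPM in mock, and 13.7, 15.8 and 11.6 CPM in wild type UVB, against 22.7, 24.7 and 21.1 CPM in mock. None of the 4 pairs of groups overlapped, which was a condition of its naming in each. The log2 differences at 5 h were -1.69 ± 0.19 in Meevs (edgeR adjusted p = 5.79e-08) and -1.65 ± 0.18 in wild type (edgeR adjusted p = 7.72e-07). At 24 h they were -1.10 ± 0.12 in Meevs (edgeR adjusted p = 1.72e-07) and -0.74 ± 0.12 in wild type (edgeR adjusted p = 0.000185). The effects of Meevs and wild type differed by -0.04 ± 0.26 at 5 h and -0.37 ± 0.17 at 24 h, and both missed the threshold (edgeR adjusted p = 0.96 and 0.338). The gene also rose with stage in mock embryos, by 2.17 ± 0.14 in Meevs and 2.60 ± 0.13 in wild type on the log2 scale.

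CR926130.2 (ENSDARG00000117818, chromosome 7, 936128 to 964628, plus strand) was lower at 5 h and higher at 24 h in both genotypes. At 5 h it had 0.331, 0.2 and 0.203 CPM in Meevs UVB, against 0.862, 0.873 and 0.502 CPM in mock, and 0.308, 0.349 and 0.541 CPM in wild type UVB, against 1.86, 0.854 and 1.09 CPM in mock. At 24 h it had 1.84, 3.16 and 4.38 CPM in Meevs UVB, against 1.05, 0.664 and 0.782 CPM in mock, and 5.09, 6.71 and 5.97 CPM in wild type UVB, against 3.14, 2.7 and 1.96 CPM in mock. The groups of each pair did not overlap, which was a condition of its naming in each. The log2 differences were -1.63 ± 0.51 and -1.62 ± 0.38 at 5 h in Meevs and wild type (edgeR adjusted p = 0.00996 and 0.00375), and 1.95 ± 0.32 and 1.18 ± 0.24 at 24 h (edgeR adjusted p = 3e-05 and 0.00464). The 24 h call in wild type was lost without replicate 3 of mock (adjusted p = 0.0537). The 5 h values rest on 5 to 23 counts per UVB library.

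A lower call at 5 h with a higher call at 24 h in Meevs was found for 8 of the 655 tested genes, CR926130.2 and FP102170.1 among them, against 2.24% of all tested genes. FP102170.1, an antisense gene on chromosome 24, had 0.626, 0.274 and 0.366 CPM after UVB at 5 h, against 0.517, 1.47 and 0.853 CPM in mock, groups that overlapped. At 24 h it had 2.25, 2.54 and 2.86 CPM after UVB, against 0.673, 1.1 and 1.17 CPM in mock, and the groups were apart. Its log2 difference was -1.20 ± 0.37 at 5 h (edgeR adjusted p = 0.0109), whereas the one 24 h after UVB was 1.37 ± 0.28 (edgeR adjusted p = 0.000498). The 5 h call was lost without replicate 2 of UVB or replicate 2 of mock, with adjusted p between 0.0752 and 0.177. The gene overlaps eps8l1b, a gene of a family that regulates actin, which had log2 differences of -0.61 ± 0.16 and 0.86 ± 0.15 at these times (edgeR adjusted p = 0.00301 and 8.94e-05), and reads of these 2 genes may be mixed.

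UVB calls at 5 h were set beside the stage call of the same gene, taken from mock embryos of the other genotype so that no library was shared. Of the 155 genes higher at 48 hpf in wild type mock, 3 were higher (AL732488.2, CABZ01113815.1 and CABZ01058045.1) and 34 lower after UVB in Meevs at 5 h, which is 1.94% and 21.9%. Of the 133 genes lower at 48 hpf, 22 were higher and 16 lower after UVB (16.5% and 12%). Over all tested genes the shares were 11.2% higher and 20.4% lower among those higher at 48 hpf, and 30.4% higher and 12.1% lower among those lower at 48 hpf. For wild type at 5 h with the stage calls of Meevs mock, 0 of 141 stage-higher genes rose and 8 fell, and 6 of 120 stage-lower genes rose and 3 fell (CR381618.1, BX571762.2 and CABZ01067657.1). These are 0% and 5.67% of the stage-higher genes and 5% and 2.5% of the stage-lower genes, against 1.48% and 8.57%, and 15.1% and 4.36%, over all tested genes. CR847968.1 is an example of the first kind. It had 0.589, 0.474 and 0.528 CPM in Meevs UVB at 5 h, against 1.21, 1.33 and 1.71 CPM in mock, a log2 difference of -1.42 ± 0.24 (edgeR adjusted p = 2.48e-05), and its stage change is given above. At 24 h its Meevs UVB libraries had 9.59, 9.42 and 9.6 CPM, against 12, 11.4 and 12.6 CPM in mock.

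The UVB difference at 5 h also went with the span of the gene. In Meevs the median log2 difference was 0.00 in the 276 tested genes of up to 5 kb, -0.10 in the 233 of 5 to 20 kb, -0.32 in the 75 of 20 to 50 kb and -0.39 in the 71 of over 50 kb. For protein_coding genes of the same classes the medians were 0.15, 0.13, 0.04 and -0.26. In wild type the set had medians of 0.01, -0.06, -0.10 and -0.34, against 0.08, 0.07, -0.01 and -0.16 for protein_coding genes. Among genes of over 50 kb in Meevs, 1.41% of the set were called higher and 16.9% lower, against 4.49% and 39% of protein_coding genes, which have more reads. Both groups of genes therefore had the lowest medians in the longest class, and no test was made of the difference between them. In Meevs, protein_coding genes of like level and span were called higher in 10.3% and lower in 7.05% of cases, against 8.27% and 9.35% for like level alone. The set had 7.48% and 13.6%. In wild type these shares were 2.78% and 2.53%, against 2.09% and 3.38% for like level alone, and 1.83% and 4.12% for the set. Span is the distance between annotated start and end and does not give the length of the transcript.

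**Figure D5:**
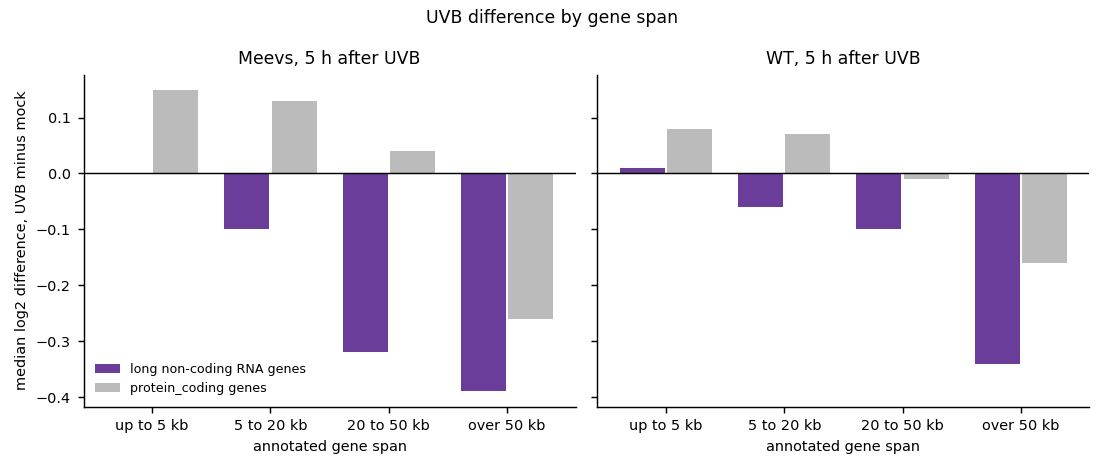
Median log2 difference between UVB and mock at 5 h by annotated gene span, for long non-coding RNA genes (purple) and protein_coding genes (grey), in Meevs (left) and wild type (right). The medians of both kinds of gene are lowest in the class over 50 kb, at -0.39 and -0.26 in Meevs.

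A tested protein_coding gene overlapped or lay within 10 kb of 424 tested genes of the set. For 155 of these pairs the genes were apart and on the same strand. Over all 424 pairs the Spearman correlation between the log2 differences of the RNA gene and its neighbour was 0.19 for the stage change in Meevs and 0.20 in wild type, and 0.14 and 0.13 for the UVB effect at 5 h in Meevs and wild type. For the UVB effect at 5 h in Meevs it was 0.02 over the 169 overlapping pairs and -0.21 over the 29 pairs that were apart with start sites within 2 kb. Across the 155 same-strand pairs the correlation was 0.40 for the stage change in Meevs and 0.42 in wild type. It was 0.33 and 0.30 for the UVB effect at 5 h in Meevs and wild type, and 0.13 and 0.14 at 24 h. These are descriptions across pairs within the same libraries. Whether an RNA gene and its same-strand neighbour belong to the same transcript was not tested. Of the 45 same-strand genes that were higher at 48 hpf in wild type, 23 (51.1%) had a neighbour called higher and 10 a neighbour called lower, against 29.7% higher and 38.1% lower among the neighbours of all 155 pairs. Of the 36 that were lower, 18 (50%) had a neighbour called lower and 5 a neighbour called higher.

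Some pairs of the genes named for stage moved the same way, and only such pairs are printed here. CU659670.1 lies 2141 bases from bin1b, a gene of the amphiphysin family that shapes membranes in muscle, on the same strand, and bin1b fell by 1.94 ± 0.10 in Meevs and 2.25 ± 0.10 in wild type on the log2 scale. CABZ01072309.2 lies 160 bases from SRL, which codes for the calcium-binding protein sarcalumenin, on the opposite strand. That RNA gene changed by -2.03 ± 0.12 in Meevs and -1.71 ± 0.12 in wild type, and SRL by -2.07 ± 0.12 and -1.75 ± 0.11. CU929145.2 and mss51, a gene for a mitochondrial protein of muscle 3376 bases away, had log2 changes of -1.77 ± 0.26 and -1.83 ± 0.21 in wild type. All of these stage changes passed the test, with edgeR adjusted p-values of 1.25e-06 or below.

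After UVB some neighbours were called with the RNA gene and others were not. In Meevs at 5 h, AL808129.1 and rimbp2, a presynaptic scaffold gene 1136 bases away on the same strand, had log2 differences of -1.84 ± 0.45 and -1.68 ± 0.36. CR936462.1 and si:ch211-204c21.1, 1750 bases away on the same strand, had log2 differences of 1.08 ± 0.18 and 1.22 ± 0.30. In wild type at 5 h, where CR936462.1 was called, si:ch211-204c21.1 was not, with 0.60 ± 0.28 (edgeR adjusted p = 0.171). CR932999.1 and abca12, a gene for a lipid transporter of skin 1187 bases away on the same strand, had log2 differences of -0.90 ± 0.29 and -1.07 ± 0.11 in Meevs and -1.05 ± 0.24 and -0.78 ± 0.11 in wild type. The Meevs call of CR932999.1 (edgeR adjusted p = 0.017) was lost without replicate 2 of UVB or replicate 1 or 2 of mock, with adjusted p between 0.0544 and 0.11. By contrast, BX510657.1 rose in Meevs while its neighbour chrna2b, a nicotinic receptor gene, had a log2 difference of -0.11 ± 0.17 (edgeR adjusted p = 0.653). BX088688.1 fell by 1.35 ± 0.27 in Meevs, and clocka, a circadian clock gene 3913 bases from it, had a log2 difference of -0.26 ± 0.20 (edgeR adjusted p = 0.337).

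In mock embryos the genotypes differed for many genes of the set. At 29 hpf 170 genes (26%) were called, 78 higher and 92 lower in Meevs, against 47.7% of all tested genes (24.5% higher and 23.2% lower) and 26.2% of protein_coding genes of like read level. At 48 hpf 240 genes (36.6%) were called, 120 in each direction, against 52.7% of all tested genes (26.5% higher and 26.2% lower) and 33.1% of protein_coding genes of like level. BX469930.1 on chromosome 1 had 20.4, 26.6 and 35.4 CPM in Meevs mock at 29 hpf, against 5.8, 1.4 and 5.98 CPM in wild type, and every Meevs library was above every wild type library. Its log2 difference was 2.64 ± 0.42 (edgeR adjusted p = 1.1e-05). CR936442.1, named erv in the reference table, had 5.13, 4.87 and 7.53 CPM in Meevs at 29 hpf, against 1.06, 0.752 and 1.05 CPM in wild type, a log2 difference of 2.60 ± 0.30 (edgeR adjusted p = 8.04e-08). CABZ01085061.1 had 1.38, 1.06 and 0.452 CPM in Meevs at 29 hpf, against 5.54, 3.45 and 4.89 CPM in wild type, a log2 difference of -2.23 ± 0.32 (edgeR adjusted p = 1.04e-06). At 48 hpf these differences were 1.999 ± 0.39, 1.86 ± 0.23 and -2.24 ± 0.31, in the same directions, and all passed the test. BX469930.1 then had 632, 1156 and 495 counts in Meevs mock, against 359, 32 and 248 in wild type mock. CR936442.1 had 300, 302 and 191 counts, against 116, 44 and 92. For both genes replicate 2 of wild type mock was the lowest at both stages. The mutation, the genetic background and the library series cannot be told apart here.

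Of the few members with an established name, birc6-as2 (ENSDARG00000097706, chromosome 17, 22687170 to 22689640, minus strand), also called megamind, has a reported role in brain development of zebrafish. At 48 hpf it had 15, 14.9 and 14.8 CPM in Meevs mock, against 4.31, 5.7 and 7.08 CPM at 29 hpf, and in wild type mock 10.1, 9.92 and 11 CPM, against 3.68, 4.75 and 3.05 CPM. The stages were apart in both genotypes, and the gene rose by 1.40 ± 0.16 in Meevs (edgeR adjusted p = 2.12e-08) and 1.43 ± 0.16 in wild type (edgeR adjusted p = 1.72e-08). None of its 4 UVB differences passed the test, and they lay between -0.17 ± 0.18 and 0.10 ± 0.17 on the log2 scale. CR383676.2, the malat1 gene, had log2 UVB differences of -0.29 ± 0.11 in Meevs at 5 h (edgeR adjusted p = 0.0433) and 0.12 ± 0.11 in wild type at 5 h (edgeR adjusted p = 0.524). The Meevs groups overlapped, and the call was lost without replicate 2 of UVB or replicate 2 or 3 of mock, with adjusted p between 0.0573 and 0.203, and without the 4 libraries that stood apart (0.189). At 24 h the log2 differences were -0.02 ± 0.11 in Meevs and -0.26 ± 0.11 in wild type, neither of which passed the test.

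Genes of RNA decay and processing were counted beside the set. The list holds 44 names, some of them alternative names of the same gene. They cover the nuclear and cytoplasmic exosome, its adaptors, nonsense-mediated decay, exonucleases, and cap, poly(A) and export factors. For these names 35 gene entries were found, and all 35 were tested. The name exosc3 has an entry on chromosome 14 and another on an unplaced scaffold, and both were counted. At 5 h after UVB, 20 of them rose and 1, the nuclear exonuclease gene xrn2, fell in Meevs, with a median log2 difference of 0.25, and 16 rose and 0 fell in wild type, with a median of 0.18. With any 1 library of the Meevs groups left out, 14 to 18 rose in Meevs, and without replicate 1 of wild type UVB, 6 rose in wild type. Without the 4 libraries that stood apart, upf3b, mtrex, exosc1, tent4b and smg8 lost their Meevs call. Over all tested genes 19.1% rose and 15.3% fell in Meevs and 6.67% rose and 6.06% fell in wild type, with medians of 0.05 and 0.00. Calls depend on read level, and this list was set beside no genes of like level in any comparison. The exosome subunit gene exosc6 rose by 0.85 ± 0.11 in Meevs (edgeR adjusted p = 9.75e-07) and 0.68 ± 0.11 in wild type (edgeR adjusted p = 0.00018). The exosome nuclease gene exosc10 had 87.1, 89.7 and 91.8 CPM in Meevs UVB, against 64.2, 64.1 and 61.7 CPM in mock, groups that were apart. It rose by 0.50 ± 0.07 in Meevs (edgeR adjusted p = 1.81e-06) and 0.35 ± 0.07 in wild type (edgeR adjusted p = 0.000853). The gene srrt, whose product links the RNA cap to processing and decay, rose by 0.45 ± 0.07 in Meevs (edgeR adjusted p = 6.01e-06). At 24 h 0 of the 35 rose and 3 fell in Meevs (srrt, pabpn1 and zcchc8), with log2 differences between -0.22 and -0.16, and without replicate 2 of Meevs mock 1 fell, whereas DESeq2 called 6 lower. In wild type at 24 h edgeR and DESeq2 called 0, and at an unadjusted p under 0.05 in edgeR 2 were higher and 1 lower. The difference between the genotypes' UVB effects was called by edgeR for 0 of the 35 at either time. At an unadjusted p under 0.05 it was higher in Meevs for 3 and lower for 1 at 5 h, and higher for 1 and lower for 3 at 24 h, and DESeq2 called 1 lower at 5 h. Between 29 and 48 hpf, 26 of the 35 (74.3%) fell in Meevs mock and 29 (82.9%) in wild type mock, against 31.5% and 33.5% of all tested genes. Levels of these messenger RNAs do not measure decay, and their part in the values of the long non-coding RNA genes was not tested.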

How the data were processed

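Polyadenylated RNA of whole zebrafish embryos was measured in 24 libraries, 3 for each combination of genotype, treatment and time. The authors deposited 1 table of raw gene counts. GRCz11 is the build in the submitters' processing notes, which also list DESeq2 1.36.0, featureCounts 1.6.3, STAR 2.7.9a and cutadapt 1.16 without their settings. Biotype, chromosome, start, end and strand were read from the annotation sheet deposited by the authors. Tables of the authors' own comparisons were not used.

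Here counts were scaled with TMM, filterByExpr with the groups took out genes of low counts, and edgeR 4.0.16 (R 4.3.3) fitted a model with the 8 groups to the 24 libraries. Its quasi-likelihood test gave a p for each contrast, adjusted over the 22340 genes tested after Benjamini and Hochberg. Genes at an adjusted p under 0.05 were called. The SE of a log2 difference comes from the fit's information matrix and the moderated quasi-dispersion, CPM use TMM-scaled totals, and the fit was tested on simulated data. DESeq2 1.42.0 was an alternative. Others were DESeq2 size factors, other filters on low counts, fits to the compared groups alone, a replicate term, other member rules, other bins of like level, and leaving out libraries.

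Genes named in the text were called, had a mean log2 CPM of 0 or more and had groups that did not overlap, a condition not used for differences of UVB effects. In the comparison for which a gene was named, a statement that its groups were apart restates that condition and adds no support. The 5 largest each way were taken for UVB effects and stage changes and the 3 largest for other comparisons. Added were the 10 genes with most reads, genes called in 1 direction in all 4 UVB effects, established names, neighbours within 10 kb and up to 4 genes of the decay list per UVB effect; not all of these are printed. Genes listed only by shared calls, CU927934.1 and wild type or later values of named genes were chosen after their values were seen. The members and lists were chosen with earlier results of these data known, and so was the choice of libraries that stand apart.

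No sequences are shown, since none for these genes were among the sources used here.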

Additional observations from a re-analysis of the deposited data

Results flagged for a closer look

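The UVB effect differed between Meevs and wild type, by the test of the difference itself in edgeR, for 6 named long non-coding RNA genes. At 5 h the Meevs effect minus the wild type effect was 0.497 for CABZ01005379.1, 0.455 for CABZ01064670.1, -1.294 for BX088688.1, -1.267 for CU856520.1 and -1.041 for BX470264.1 on the log2 scale. CABZ01005379.1 on chromosome 19 had 29.4, 34 and 34 CPM in Meevs UVB, against 23.2, 27.8 and 21.4 CPM in Meevs mock, and 31.6, 28.8 and 30.5 CPM in wild type UVB, against 31.5, 31.4 and 32.5 CPM in wild type mock. CABZ01064670.1 on chromosome 10 had 18.4, 19.6 and 19.7 CPM in Meevs UVB, against 14.8, 13.1 and 13.4 CPM in Meevs mock, and 19.9, 20.3 and 17.7 CPM in wild type UVB, against 19.8, 17.2 and 19.7 CPM in wild type mock. For these 2 genes the Meevs mock libraries were the low ones, and the Meevs UVB libraries were near wild type. BX088688.1 on chromosome 20 had 0.662, 0.524 and 0.894 CPM in Meevs UVB, against 1.34, 1.84 and 2.01 CPM in Meevs mock, and 1.2, 1.05 and 1.72 CPM in wild type UVB, against 1.5, 1.47 and 1.2 CPM in wild type mock.

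Some of these calls rest on single libraries. CABZ01005379.1 was not called when any 1 of 6 of the 12 libraries was left out, with adjusted p between 0.0591 and 0.146: wild type mock 3, wild type UVB 2, Meevs UVB 2 and 3, and Meevs mock 1 and 3. CABZ01064670.1 was not called when any 1 of 8 was left out, with adjusted p between 0.0539 and 0.105: wild type mock 1 and 3, wild type UVB 3, Meevs UVB 1, 2 and 3, and Meevs mock 2 and 3. BX088688.1 was not called when any 1 of 5 was left out, with adjusted p between 0.0548 and 0.096: wild type mock 3, wild type UVB 3, Meevs UVB 2, and Meevs mock 2 and 3. The differences of CU856520.1 and BX470264.1 stayed called without any single library. Without the 4 libraries that stood apart, CABZ01005379.1, CABZ01064670.1 and BX088688.1 had differences of 0.368, 0.32 and -0.979, none of which was called (adjusted p = 0.0848, 0.162 and 0.149). At 24 h the difference of CABZ01064941.1 was 0.926, and the report gives the libraries that end that call.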

How the results depend on the processing

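Counts of called genes moved by more than 1.5 times under some of the alternatives. With 1 library left out, only counts for UVB in wild type and for the differences of UVB effects moved so far. A near count could still hold other genes. Without the 4 libraries that stood apart, 12 genes were called for the difference of effects at 5 h, 5 of them among the 13 of the main fit. For UVB in Meevs at 24 h there were 61, 44 of them among the 63 of the main fit. DESeq2 called 16 and 63 genes in these comparisons, of which 12 and 58 were among those of the main fit. Without genes that overlap another gene, 89 genes were called for the UVB effect in Meevs at 5 h (138 with them). There were 25 in wild type at 5 h (39 with them) and 162 for the stage change in Meevs (261 with them). Only 401 genes were tested there, against 655. The shares called were near, at 22.2%, 6.23% and 40.4%, against 21.1%, 5.95% and 39.8%. For the difference of UVB effects at 24 h, where 1 gene was called, 2 were called with DESeq2 size factors and 3 with DESeq2, with only the libraries compared or without the 4 libraries that stood apart. With only the libraries compared, 22 of 481 tested genes were called in wild type at 5 h. Without the 4 libraries, 15 of 673 were called in wild type at 24 h. Protein_coding genes of like level and span were called in 1.92% of cases in wild type at 24 h, against 1.68% for like level alone. With 1 library left out, the counts lay between 110 and 141 for UVB in Meevs at 5 h, 46 and 56 at 24 h, 20 and 50 in wild type at 5 h, and 3 and 12 at 24 h. They lay between 4 and 18 for the difference of effects at 5 h and between 0 and 3 at 24 h, between 218 and 243 and between 260 and 273 for the stage change in Meevs and wild type, and between 122 and 177 and between 197 and 220 for genotype at 29 and 48 hpf. The number of genes tested differed between some of the alternatives, and the cause of these shifts was not tested. Of 972 alternatives for 72 named differences, 902 kept direction and call, 70 kept the direction but lost the call, and 0 changed direction. These differences were named because they were called and, except for differences of UVB effects, because their groups did not overlap. Leaving out a library could therefore hardly change a direction.

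Same-numbered libraries were compared by their deviations from the group means. No comparison had every same-numbered pair correlated over 0.1, and the highest value was 0.136. Pairs of different numbers were not compared, so these values do not settle whether same-numbered replicates shared a clutch or day. With the replicate block, 136, 60, 35 and 8 genes were called for UVB in Meevs at 5 h and 24 h and in wild type at 5 h and 24 h. The block gave 12 and 1 for the differences of effects, 258 and 284 for the stage change in Meevs and wild type, and 170 and 238 for genotype at 29 and 48 hpf. It ended 1 named call, that of CU861453.1 in wild type at 24 h (edgeR adjusted p = 0.0643). Low read levels limit the set: 116 genes could not be tested, and of those under 0 log2 CPM 9.7% were called in Meevs at 5 h.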
